A study of Mus musculus with 912 samples.

Results

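Dentate granule (DG) nuclei that carried ARC protein and lacked FOS protein were compared between mice that met the same new environment (NE) again and mice that met it once. The nuclei of the first group, A > A ARC+FOS-, came from wild-type female C57BL6 mice that spent 15 min in environment A, 4 h in the home cage and another 15 min in A, and that were killed 1 h after the second exposure. The nuclei of the second group, 5 h ARC+FOS-, came from female C57BL6 mice killed 5 h after a single exposure. Both groups therefore stood about 5 h after the first exposure, and the question was whether nuclei that were not reactivated by A differed from nuclei of mice that had not met A again. Of 912 nuclei in the series, 552 belonged to the DG nuclei sorted on ARC and FOS. The comparison used the 188 nuclei of the 2 groups that had at least 4000 genes with a log2(TPM+1) above 1, where TPM is a transcript level scaled for gene length and library size. These were 129 of 142 sorted A > A nuclei from 6 mice and 59 of 96 sorted 5 h nuclei from 4 mice. Every nucleus was 1 SmartSeq2 library of polyadenylated RNA. By the labels the 5 h mice were 8.7 or 8.85 weeks old and the A > A mice 7.75 to 8.875 weeks.

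FOS and ARC are products of immediate early genes (IEGs), which neurons transcribe soon after they fire. FOS protein is lost within hours, while ARC protein can outlast it, so an ARC+FOS- nucleus belonged to a neuron with ARC protein left from activity but without fresh FOS. In mice re-exposed to A, the nuclei of neurons that fired again and made FOS fell into the ARC+FOS+ gate and were not part of this comparison. After the IEGs, active granule neurons change genes of synapses, trophic signalling and excitability over the following hours.

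Each mouse was 1 replicate. Counts were summed over the nuclei of a mouse and compared with edgeR, and the mean log2(TPM+1) over the nuclei of a mouse was compared with limma as a second reading of each gene. All p-values were adjusted by Benjamini-Hochberg over every gene tested, and 0.05 was the threshold. Positive differences mean a higher value in A > A.

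The 4 single-exposure mice did not form 1 group. Mice 8 and 9 carry the date code X160512 in the labels and mice 22 and 23 the code X170224, and no A > A mouse carries either code, so exposure and date cannot be told apart. Of 24 sorted nuclei per mouse, 22 and 21 passed in mice 8 and 9, but 10 and 6 passed in mice 22 and 23. The A > A mice passed 16 to 24 nuclei each. The mean number of genes above 1 per nucleus was 5603 and 5326 in mice 8 and 9, 4278 and 4544 in mice 22 and 23, and 4637 to 5737 in A > A. The median total count per nucleus was 381222 and 350949 in mice 8 and 9, between 1555840 and 1776350 in mice 22 and 23, and between 1890960 and 2694630 in A > A. The mean log10 total count was 6.29 ± 0.0415 (SD, n = 6) in A > A and 5.86 ± 0.382 (SD, n = 4) at 5 h, without overlap (two-sided exact permutation test, p = 0.00952, the smallest that 210 splits can give, and 0.0238 adjusted over 5 measures). Multimapped reads were 9.66% ± 0.661 (SD, n = 6) of aligned and multimapped reads in A > A and 13.6% ± 1.75 (SD, n = 4) at 5 h, again without overlap (exact permutation test, p = 0.00952, adjusted 0.0238). The share of nuclei that passed (adjusted p = 0.206), the genes above 1 (adjusted p = 0.41) and the share of reads aligned (adjusted p = 0.25) overlapped between the groups in the same exact test. The A > A mice also came in pairs by date code, with mice 19 and 20 on X161209 and X170113, mice 24 and 25 on X170525 and mice 26 and 27 on X021618. The permutation test treats the 10 mice as exchangeable and takes no account of these pairs, so its p-values may be too small. Calls made against the mice of 1 date alone are given below beside the results for all 4 mice, and the part of depth and date in them was not tested further.

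**Figure D1:**
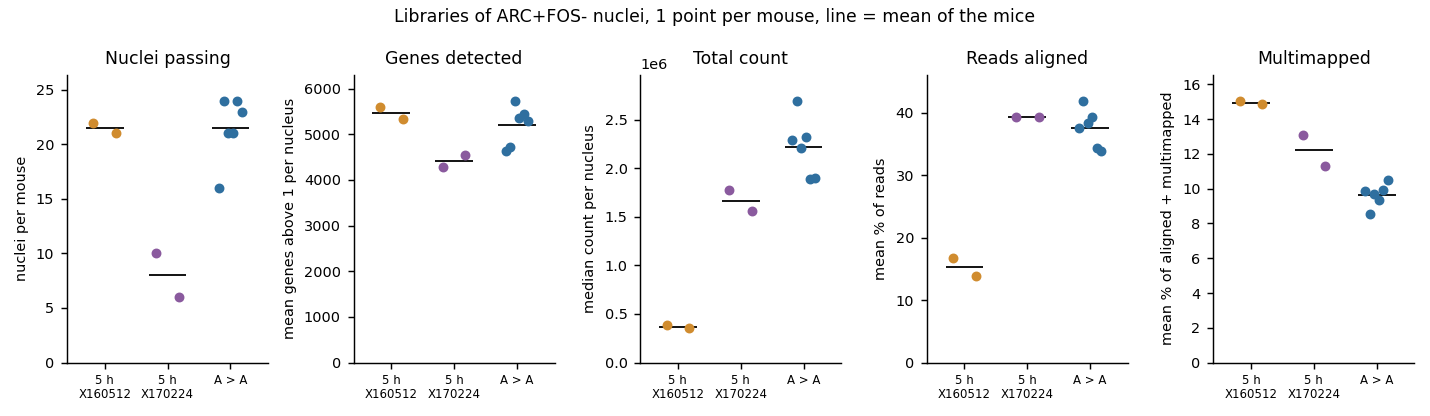
Library measures per mouse: nuclei that passed, mean genes with a log2(TPM+1) above 1, median total count per nucleus, mean percent of reads aligned and mean percent multimapped, with points for mice, lines for means, and the 5 h mice split by date code. Mice 22 and 23 (X170224) have 10 and 6 nuclei and the lowest gene numbers, and mice 8 and 9 (X160512) have median total counts of 381222 and 350949.

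The nuclei had the profile of dentate granule neurons in both groups. All 13 granule markers, among them Prox1, were counted in each group, with a summed level of 2289 to 3425 counts scaled to the library total (CPM) in A > A and 2293 to 3975 at 5 h. Markers of CA1 pyramidal cells summed to at most 123 CPM, of CA3 to at most 191, of mossy cells to at most 68.5, of microglia to at most 64.4, of endothelium to at most 29.9 and of oligodendrocyte precursors to at most 18.4 CPM in any mouse. Interneuron markers summed to 341 to 1140 CPM in A > A and 30.4 to 1212 at 5 h, with Erbb4 at 0 in every A > A mouse and Slc32a1 and Vip at 0 in every 5 h mouse. Immature neuron markers summed to 216 to 356 CPM in A > A and 209 to 532 at 5 h. Astrocyte markers summed to 273 to 892 CPM in A > A and 90.4 to 546 at 5 h, and oligodendrocyte markers to 123 to 908 and 77.1 to 471 CPM, with Mog and Opalin at 0 in every 5 h mouse. These ranges overlapped between the groups. All 8 astrocyte and all 7 immature neuron markers were also counted in each group, so detection alone does not set the granule markers apart. Their summed level was above that of every other list in every mouse, though the lists differ in length.

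No gene passed the edgeR threshold between A > A ARC+FOS- and 5 h ARC+FOS- nuclei. Of 16250 genes tested, 0 were called higher (0%) and 0 lower (0%), and the lowest adjusted p was 0.666. At an unadjusted p under 0.05, 657 genes (4.04%) were higher and 375 (2.31%) lower in A > A. By sign alone 55.1% of all genes were higher and 44.9% lower, with a median log2 fold change of 0.12. limma on the mean log2(TPM+1) called 0 of 11102 genes higher and 1 lower (0.00901%), which was Gm14539, with 736 genes higher (6.63%) and 202 lower (1.82%) at an unadjusted p under 0.05. DESeq2 called 446 of 17345 genes higher (2.57%) and 134 lower (0.773%). In 236 of those 580 calls every mouse of 1 group had a count of 0, and in 118 the mice of the groups did not overlap in CPM. The common dispersion between mice was 1.54 in the edgeR fit. Over all genes the mice did not overlap for 193 genes higher in A > A (1.19%) and 107 lower (0.658%) in CPM, and for 113 higher (1.02%) and 52 lower (0.468%) of 11102 in mean log2(TPM+1).

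The sign and number of calls depended on which single-exposure mice stood for 5 h. Against mice 22 and 23 alone, edgeR called 186 genes higher (1.02%) and 5 lower (0.0274%) and limma 158 higher (1.44%) and 16 lower (0.146%). Against mice 8 and 9 alone, edgeR called 0 higher and 1 lower (0.00526%), AA465934, and limma 1 higher (0.00882%), Arhgef2, and 16 lower (0.141%). edgeR called 0 genes in both, and limma called 3, Arhgef2, Gm14539 and Gm25732, of which Gm25732 was higher against mice 22 and 23 and lower against mice 8 and 9. Of the 186 genes edgeR called higher against mice 22 and 23, 84 had a count of 0 in both of those mice.

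By whole profiles, mice 8 and 9 were like each other and like the A > A mice, while mice 22 and 23 were no more alike than 5 h mice of different dates. Over 11102 genes, Pearson's r between mean profiles was 0.906 for mice 8 and 9, 0.758 for mice 22 and 23, and 0.736 to 0.797 between 5 h mice of different dates. The 6 A > A mice correlated with each other at 0.840 to 0.915 (median 0.870). They correlated with mice 8 and 9 at 0.851 to 0.878 (median 0.867) and with mice 22 and 23 at 0.723 to 0.819 (median 0.763). These correlations are across genes, which are not independent, and the profiles of mice 22 and 23 are means over fewer nuclei.

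Arc was higher in every A > A mouse than in any 5 h mouse. Only mouse 19 also exceeded the 2 mice killed 4 h after a single exposure. Arc (chr15:74669083-74672570, minus strand, GRCm38), whose protein was one of the sorting markers and which acts at the synapse in AMPA receptor endocytosis, had a mean log2(TPM+1) of 9.03, 8.49, 7.84, 7.43, 7.78 and 7.36 in A > A mice 19, 20, 24, 25, 26 and 27. The 5 h mice 8, 9, 22 and 23 had 6.83, 6.86, 4.70 and 3.48. The lowest A > A mouse lay above the highest 5 h mouse, and mice 22 and 23 were far below mice 8 and 9. The log2 fold change of the summed counts was 1.14 ± 0.32 (SE, edgeR adjusted p = 0.666), and the difference of the means was 2.52 ± 0.64 (SE, limma adjusted p = 0.305), so neither passed over all genes. Against mice 22 and 23 the difference of the means was 3.89 (limma adjusted p = 0.00542), and against mice 8 and 9 it was 1.14 (limma adjusted p = 0.637). Nuclei with Arc above 1 made up 87.0% to 100% in A > A, 86.4% and 95.2% in mice 8 and 9, and 60.0% and 66.7% in mice 22 and 23. Arc was at 8.68 and 8.91 in the 2 mice killed 4 h after a single exposure, at 8.49 to 9.92 in the A > A ARC+FOS+ nuclei and at 7.52 and 5.14 in the FOS- nuclei of mice that met A and then environment C.

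On the mean log2(TPM+1), the IEG transcription factors named here overlapped between the groups and varied from mouse to mouse. Fos had a mean log2(TPM+1) of 0.13 to 1.49 in A > A and of 0, 0.42, 2.75 and 0.31 in mice 8, 9, 22 and 23, and Fosb stayed below 1 in all 10 mice. Egr1, a zinc finger factor induced with Fos, was at 0.87 to 4.43 in A > A and 0.20 to 1.42 at 5 h (log2 fold change 1.89 ± 1.12, SE, edgeR adjusted p = 0.834), with mouse 24 the highest. The nuclear receptor Nr4a2 was at 0.30 to 2.35 in A > A and 0.43 to 3.15 at 5 h. Kdm6b, a histone H3K27 demethylase, was at 0.99 to 2.23 in A > A and 0.39 to 1.66 at 5 h, whereas the A > A ARC+FOS+ nuclei had 5.35 to 6.38. Of 18 IEG transcription factors tested, 11 were higher and 7 lower, 0 were called, 0 had an unadjusted p under 0.05, and the median log2 fold change was 0.66 beside 0.12 over all genes. Ier5 was at 0.88 to 2.58 in A > A, at 1.21 and 0.99 in mice 8 and 9 and at 0 in mice 22 and 23 (log2 fold change 3.01 ± 1.59, SE, edgeR adjusted p = 0.824). In CPM its mice did not overlap, at 44.2 to 152 in A > A and 0 to 24.1 at 5 h. Over all genes 1.19% were higher without overlap in CPM. Against mice 22 and 23 alone edgeR called 2 of 22 genes of this list higher, beside 1.02% of all genes. They were Ier5 (adjusted p = 0.0255) and Junb (adjusted p = 0.029), both with a summed count of 0 in those 2 mice. Against mice 8 and 9 edgeR called 0. Junb was named after its values were seen. Klf6 was at 0 to 0.50 in A > A and 0.46 to 1.50 at 5 h (log2 fold change −4.14 ± 1.92, SE, edgeR adjusted p = 0.793).

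**Figure D2:**
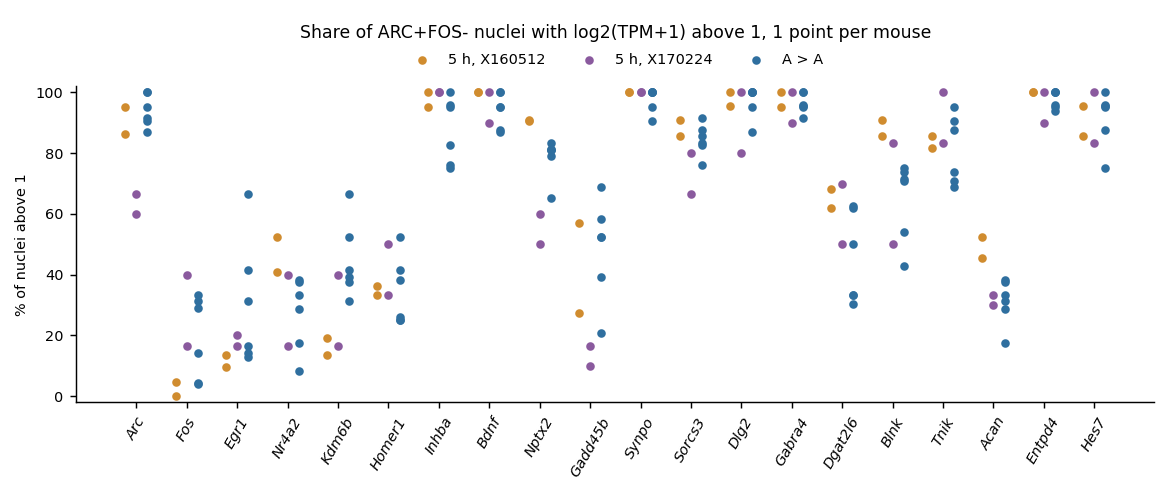
Percent of ARC+FOS- nuclei of each mouse with a log2(TPM+1) above 1 for 20 genes, with 1 point per mouse and the 5 h mice coloured by date code. Arc passes 1 in 87.0% to 100% of A > A nuclei, while Fos passes 1 in at most 33.3% of the nuclei of any A > A mouse and 40.0% in mouse 22.

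Among secreted and synaptic effectors of activity, levels of the A > A mice overlapped those at 5 h. Bdnf, a neurotrophin that supports synaptic plasticity, was at 6.39 to 8.75 in A > A and at 8.60, 8.52, 8.05 and 6.94 in mice 8, 9, 22 and 23 (log2 fold change −0.17 ± 0.30, SE, edgeR adjusted p = 0.946). Inhba, the activin beta A subunit, was at 5.55 to 7.99 in A > A and 6.49 to 8.47 at 5 h (−0.08 ± 0.43, SE, edgeR adjusted p = 0.985). Both genes were above 1 in at least 75% of the nuclei of every mouse. In A > A mice 26 and 27 Bdnf was at 6.39 and 6.75 and Inhba at 5.55 and 5.89, whereas Inhba in mouse 24 was at 5.92 and the other A > A mice had at least 7.85 for Bdnf and 7.88 for Inhba. Nptx2, a secreted pentraxin that clusters AMPA receptors, was at 4.15 to 6.33 in A > A, at 7.09 and 5.50 in mice 8 and 9 and at 2.84 and 2.09 in mice 22 and 23. The A > A mice lay inside the range of 5 h, above the mice of one date and mostly within those of the other. Its difference was 3.03 against mice 22 and 23 (limma adjusted p = 0.0324) and −0.80 against mice 8 and 9 (limma adjusted p = 0.879). Gadd45b, a stress and activity gene linked to DNA demethylation, was at 1.45 to 4.91 in A > A and 0.35 to 4.09 at 5 h, and Homer1, a postsynaptic scaffold, at 1.34 to 2.48 and 0.93 to 2.45. The ARC+FOS+ nuclei of A > A mice had 3.23 to 7.01 for Homer1.

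Synpo, which encodes the spine apparatus protein synaptopodin, was at 9.88, 10.0, 8.20, 9.12, 10.3 and 8.83 in A > A mice 19, 20, 24, 25, 26 and 27 and at 8.87, 8.65, 7.22 and 8.07 in mice 8, 9, 22 and 23. Mice 24 and 27 overlapped the 5 h mice. The log2 fold change was 1.15 ± 0.29 (SE, edgeR adjusted p = 0.666). Spry2, an inhibitor of receptor tyrosine kinase signalling, was at 5.73 to 7.49 in A > A and 6.56 to 8.14 at 5 h, with a log2 fold change of −0.95 ± 0.42 (SE, edgeR adjusted p = 0.786). Of 30 activity-regulated signalling and effector genes tested, 14 were higher and 16 lower, 0 were called, 3 were higher and 1 lower at an unadjusted p under 0.05, and the median log2 fold change was −0.06 beside 0.12 over all genes. On the mean log2(TPM+1), 20 of 27 were higher and 7 lower, with a median difference of 0.39 beside 0.11 over all genes. That median was 0.67 against mice 22 and 23 and 0.01 against mice 8 and 9. limma called 4 genes of this list higher against mice 22 and 23 alone, beside 1.44% of all genes. They were Arc, Nptx2, the neuropeptide precursor Vgf (difference 2.77, limma adjusted p = 0.0326) and Lingo1 (2.47, limma adjusted p = 0.044), and edgeR called 0. Against mice 8 and 9 neither called any. Vgf and Lingo1 were named after their values were seen.

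**Figure D3:**
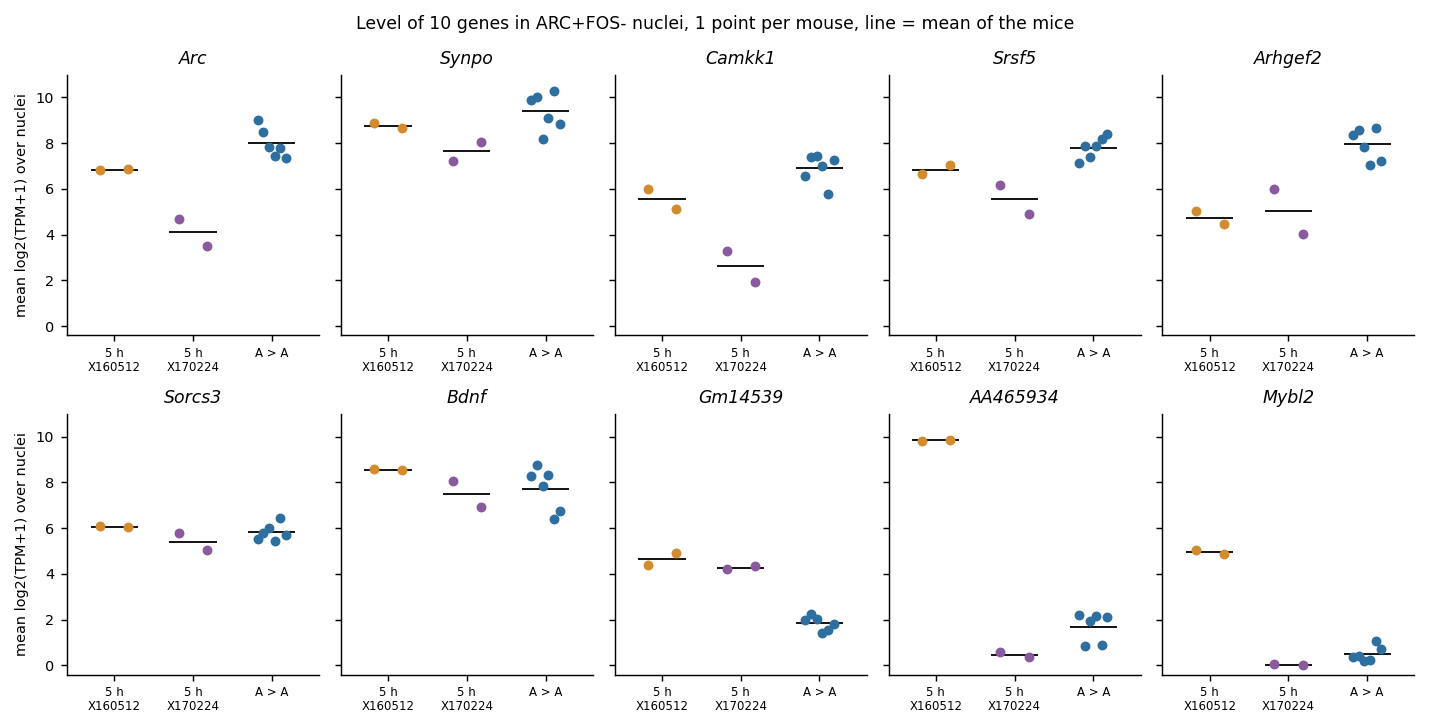
Mean log2(TPM+1) over the ARC+FOS- nuclei of each mouse for 10 genes, with points for mice, lines for means and the 5 h mice split by date code. Arc, Srsf5 and Arhgef2 are higher in every A > A mouse than in any 5 h mouse and Gm14539 lower in every one, while AA465934 and Mybl2 are high only in mice 8 and 9.

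Camkk1 was the 1 gene that edgeR called when all ARC-sorted groups were fitted together, and it was not called in the comparison of the 2 groups alone. Camkk1 (chr11:73019008-73042073, plus strand), the kinase that activates CaMKI and CaMKIV, had summed counts of 1067, 1018, 785, 798, 625 and 1074 CPM in A > A mice 19 to 27 and of 241, 347, 321 and 113 CPM in mice 8, 9, 22 and 23. Every A > A mouse was above every 5 h mouse. The log2 fold change was 1.81 ± 0.33 (SE, edgeR adjusted p = 0.666). It was 1.63 ± 0.30 against mice 8 and 9 (edgeR adjusted p = 0.363) and 2.05 ± 0.45 against mice 22 and 23 (edgeR adjusted p = 0.0746). In the fit over all groups, which adds FOS+ sums partly from the same mice, Camkk1 was the 1 gene called of 21673 (1.85, edgeR adjusted p = 0.0492). On the mean log2(TPM+1), Camkk1 was at 5.80 to 7.43 in A > A and at 5.99, 5.14, 3.30 and 1.94 at 5 h, where mouse 26 fell below mouse 8 (difference 2.82 ± 0.69, SE, limma adjusted p = 0.267). DESeq2 called Camkk1 (log2 fold change 1.75, DESeq2 adjusted p = 0.000107). limma called it against mice 22 and 23 (difference 4.29, limma adjusted p = 0.00391) and not against mice 8 and 9 (difference 1.35, limma adjusted p = 0.597). Outside the comparison, Camkk1 was at 7.54 and 5.96 in the 2 mice killed 4 h after a single exposure. The FOS- nuclei of mice that met A and then C had 6.77 and 5.80. Levels like those of A > A were therefore also met without a second exposure to A.

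The kinases Prkce and Camk1d overlapped between the groups. Prkce, a protein kinase C isoform, was at 6.20 to 7.53 in A > A, at 7.24 and 7.21 in mice 8 and 9 and at 4.13 and 4.69 in mice 22 and 23 (log2 fold change 0.85 ± 0.36, SE, edgeR adjusted p = 0.779). Camk1d was at 0.87 to 3.68 in A > A and 0.03 to 1.44 at 5 h (2.31 ± 1.16, SE, edgeR adjusted p = 0.812). Of 23 calcium and calmodulin dependent kinases and phosphatases tested, 17 were higher and 6 lower, 0 were called, 2 were higher at an unadjusted p under 0.05 and the median log2 fold change was 0.39 beside 0.12 over all genes. limma called 2 of the list higher against mice 22 and 23 alone, beside 1.44% of all genes. They were Camkk1 and Camk2a (difference 4.25, limma adjusted p = 0.003), the second named after its values were seen. edgeR called 0 against either date, and limma called 0 against mice 8 and 9.

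Of the 10 genes higher and 10 lower that did not overlap in CPM and had the smallest unadjusted p, none was called by edgeR (adjusted p = 0.666 for each). The values are therefore descriptive, and some overlap on the mean log2(TPM+1) scale given here. DESeq2 called all of them except Gemin8 and the gene model Gm37792, for which it gave no adjusted p. The DESeq2 adjusted p of those called ran from 7.04e-12 for AW209491 to 0.0118 for Ano6. Besides Camkk1, Srsf5 was the most abundant of those higher. Srsf5 (chr12:80945504-80950507, plus strand), a serine and arginine rich splicing factor, was at 7.13, 7.86, 7.39, 7.87, 8.20 and 8.40 in A > A and at 6.63, 7.04, 6.19 and 4.89 at 5 h, without overlap (log2 fold change 1.58 ± 0.26, SE). The ARC+FOS+ nuclei of A > A mice had 9.08 to 10.1. The 2 mice of 4 h had 8.46 and 7.44, and the FOS- nuclei of mice that met A and then C had 7.89 and 8.09. Levels of Srsf5 like those of A > A were therefore also met without a second exposure to A. Gnl2, a nucleolar GTPase, was at 2.19 to 4.66 in A > A and 1.42 to 2.22 at 5 h, and Slc12a9 at 1.40 to 2.90 and 1.15 to 1.45. Gpx1, a glutathione peroxidase, was at 0.12 to 2.34 in A > A, at 0 in mice 8 and 9 and at 0.24 in mice 22 and 23. AW209491 was at 0.48 to 1.82 in A > A and at most 0.20 at 5 h, and Hscb, an iron-sulphur cluster cochaperone, was at 0.26 to 1.17 in A > A and at 0 in all 4 single-exposure mice.

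Of the genes lower in A > A, Ano6, a phospholipid scramblase and ion channel, was at 0.65, 0.73, 1.70, 2.15, 1.16 and 1.23 in A > A and at 2.77, 3.13, 2.44 and 3.99 at 5 h, without overlap (difference −1.81 ± 0.42, SE, limma adjusted p = 0.252). Rapgef5, a Rap exchange factor, was at 0.42 to 1.66 in A > A and 1.22 to 2.40 at 5 h. Tacc3, a spindle protein, was at 0 to 0.55 and 0.37 to 1.91, and limma called it lower against mice 22 and 23 alone (difference −1.35, limma adjusted p = 0.0252). Gemin8 was at 0.27 to 0.84 and 0.83 to 1.97, and Sirt1, a deacetylase, at 2.30 to 3.68 and 2.41 to 3.50. Xylb was at most 0.15 in A > A and 0.13 to 0.68 at 5 h. Spef2 was at 0 in all 6 A > A mice and at 0.13, 0.34, 0.62 and 0.77 at 5 h.

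Gm14539 and Arhgef2 kept their direction at similar size against both dates. Gm14539 (X:20581141-20581314, minus strand, annotated as a processed pseudogene, so reads may be shared with its parent gene) had a mean log2(TPM+1) of 2.00, 2.26, 2.01, 1.43, 1.54 and 1.80 in A > A and of 4.41, 4.92, 4.20 and 4.33 at 5 h. The highest A > A mouse was below the lowest 5 h mouse. The difference was −2.63 ± 0.40 (SE, limma adjusted p = 0.0496), −2.43 against mice 22 and 23 (limma adjusted p = 0.0239) and −2.83 against mice 8 and 9 (limma adjusted p = 0.0129). edgeR gave a log2 fold change of −2.55 ± 0.57 (SE, adjusted p = 0.666). DESeq2 called Gm14539 (log2 fold change −2.63, DESeq2 adjusted p = 6.8e-10). Leaving out any 1 mouse other than 5 h mouse 23 ended the limma call. Multimapped reads also did not overlap between the groups, and their part in this result was not tested. Among the other groups Gm14539 was at 4.00 and 1.39 in the 2 mice of 4 h and at 1.16 to 2.97 in A > A ARC+FOS+ nuclei. The FOS- nuclei of mice that met A and then C had 2.42 and 3.02, between A > A and 5 h.

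Arhgef2, named after its values were seen, encodes a microtubule-associated activator of RhoA (chr3:88605966-88648052, plus strand). It was at 8.34, 8.59, 7.83, 7.03, 8.66 and 7.22 in A > A and at 5.02, 4.47, 6.00 and 4.03 at 5 h, without overlap. The difference was 3.07 ± 0.53 (SE, limma adjusted p = 0.114) over all 4 single-exposure mice, 2.93 against mice 22 and 23 (limma adjusted p = 0.0337) and 3.20 against mice 8 and 9 (limma adjusted p = 0.019). The log2 fold change of the summed counts was smaller, 1.53 ± 0.39 (SE, edgeR adjusted p = 0.666). DESeq2 called Arhgef2 (log2 fold change 1.48, DESeq2 adjusted p = 0.0228). A > A ARC+FOS+ nuclei had 5.25 to 7.75 and the 2 mice of 4 h had 6.68 and 5.53. The FOS- nuclei of mice that met A and then C had 7.21 and 7.36, within the range of A > A. Levels of Arhgef2 like those of A > A were therefore also met without a second exposure to A.

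**Figure D4:**
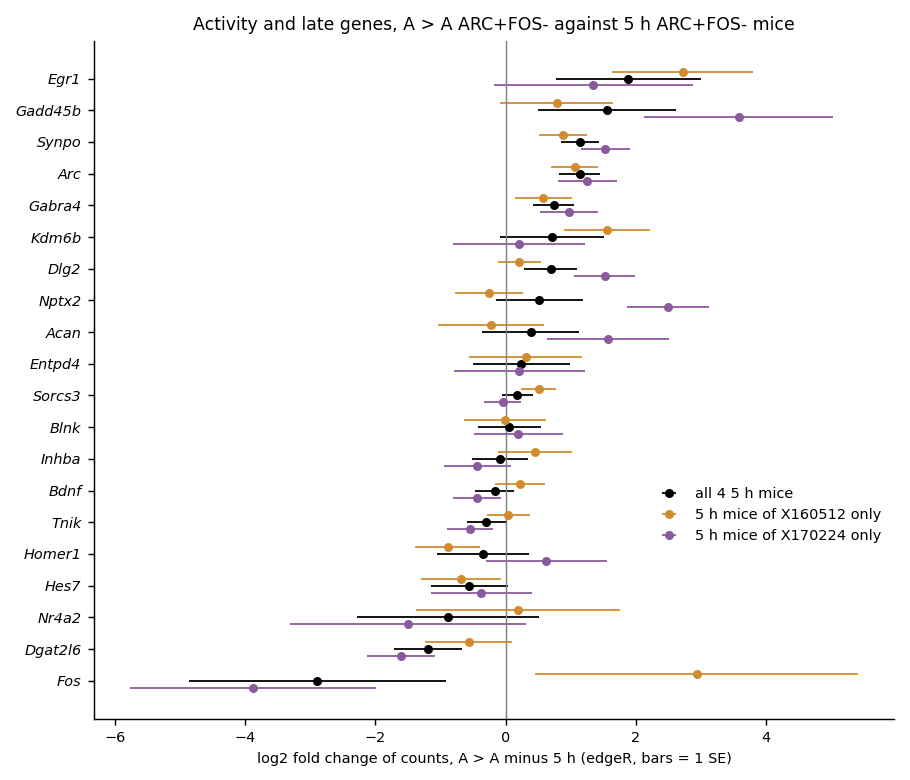
Log2 fold change of summed counts (A > A minus 5 h, edgeR, bars are 1 SE) for 20 activity and late genes against all 4 single-exposure mice (black), against mice 8 and 9 of X160512 (orange) and against mice 22 and 23 of X170224 (purple). Arc is at 1.14, 1.07 and 1.26, and Fos turns from −2.89 over all mice to 2.94 against mice 8 and 9.

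The genes that the study tied to late time points or to reactivity overlapped between the groups. The scaffold Dlg2 was at 7.64 to 8.45 in A > A, at 8.39 and 8.17 in mice 8 and 9 and at 5.97 and 5.58 in mice 22 and 23, so that the A > A mice stood with the first pair. Its log2 fold change was 0.69 ± 0.41 (SE, edgeR adjusted p = 0.834). limma called Dlg2 higher against mice 22 and 23 alone (difference 2.29, limma adjusted p = 0.0317) and not against mice 8 and 9 (−0.21, limma adjusted p = 0.97). Sorcs3, a sorting receptor of the postsynaptic density, was at 5.42 to 6.45 in A > A and 5.03 to 6.08 at 5 h (0.18 ± 0.24, SE, edgeR adjusted p = 0.925). The GABA-A subunit Gabra4 was at 6.03 to 7.88 and 5.36 to 7.38, and the kinase Tnik at 3.47 to 6.74 and 4.28 to 6.00. The adaptor Blnk was at 2.58 to 4.60 in A > A, at 6.10 and 5.19 in mice 8 and 9 and at 3.00 and 3.46 in mice 22 and 23. The proteoglycan Acan was at 0.82 to 2.20 and 1.18 to 3.16, Entpd4 at 2.40 to 4.43 and 2.19 to 4.21, Hes7 at 2.50 to 3.53 and 2.41 to 4.13, and Dgat2l6 at 2.22 to 4.93 and 2.40 to 5.67. The largest of these 9 log2 fold changes against all 4 mice was −1.19 ± 0.53 for Dgat2l6 (SE, edgeR adjusted p = 0.786).

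The study's own gene lists were higher in mice 8 and 9 than in mice 22 and 23. So was the mean over all genes tested, at 1.72 and 1.64 in mice 8 and 9 and at 1.28 and 1.37 in mice 22 and 23. In A > A that mean was 1.42 to 1.84. The late, sustained and 5 h only lists were chosen on these 5 h nuclei. The early and 4 h only lists were chosen on genes without a call at 5 h. The direction of all 5 lists here is therefore not independent evidence. Genes called only at 5 h had a mean log2(TPM+1) of 1.92 to 2.28 over 226 genes in A > A, of 3.21 and 3.12 in mice 8 and 9 and of 1.75 and 1.78 in mice 22 and 23. Mice 8 and 9 were above every other mouse, and mice 22 and 23 were below every A > A mouse. Of 219 of these genes tested, 80 were higher and 139 lower in A > A, 0 were called by edgeR, 0 were higher and 14 lower at an unadjusted p under 0.05, and the median log2 fold change was −0.38 beside 0.12 over all genes. Both X160512 mice exceeded the other 8 mice for 89 of 214 genes of this list (41.6%) and for 532 of all 11102 genes (4.79%). On the mean log2(TPM+1) the list's median difference was 0.38 against mice 22 and 23 and −0.84 against mice 8 and 9, beside 0.30 and −0.07 over all genes. limma called 5 of its genes higher and 1 lower against mice 22 and 23, beside 1.44% and 0.146% of all genes.

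The late list, called by the study at 4 h and 5 h, had a mean of 4.15 to 4.64 over 129 genes in A > A, of 5.15 and 4.85 in mice 8 and 9 and of 3.56 and 3.32 in mice 22 and 23. The A > A mice fell between the 2 dates. Of the 129 genes, 76 were higher and 53 lower, 12 were higher and 4 lower at an unadjusted p under 0.05, 0 were called and the median was 0.18. Its median difference of the means was 1.01 against mice 22 and 23, where limma called 10 genes higher and edgeR 2, and −0.59 against mice 8 and 9, where both called 0. Over all genes these median differences were 0.30 and −0.07, and limma called 1.44% and edgeR 1.02% higher against mice 22 and 23. The same list was at 5.23 and 4.50 in the 2 mice of 4 h and at 3.32 to 4.53 in A > A ARC+FOS+ nuclei.

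The sustained list, called at 1 h, 4 h and 5 h, was at 5.01 to 5.43 over 107 genes in A > A, at 5.64 and 5.58 in mice 8 and 9 and at 4.33 and 3.94 in mice 22 and 23. Of its genes 68 were higher and 39 lower, 0 were called and the median log2 fold change was 0.23. limma called 12 of its genes higher against mice 22 and 23 alone, beside 1.44% of all genes, and edgeR called 3, beside 1.02%. The neuritin gene Nrn1 and the Nogo receptor relative Rtn4rl1, named after their values were seen, had differences of 3.78 and 4.03 there (limma adjusted p = 0.003 for both). Against mice 8 and 9 neither called any. The median difference of the means was 1.03 against mice 22 and 23 and −0.31 against mice 8 and 9, beside 0.30 and −0.07 over all genes. The early list, called at 1 h only, was at 1.97 to 2.63 over 252 genes in A > A, at 2.27 and 2.21 in mice 8 and 9 and at 1.66 and 1.72 in mice 22 and 23. Of 245 tested, 148 were higher and 97 lower, 14 were higher and 1 lower at an unadjusted p under 0.05, 0 were called and the median was 0.29. edgeR called 6 genes of the early list higher against mice 22 and 23 alone, beside 1.02% of all genes. There limma called 5 of the list higher and 1 lower, beside 1.44% and 0.146%. Its level in ARC+FOS+ nuclei of A > A mice was 2.84 to 3.83, above every FOS- mouse compared here. Genes called at 4 h only were at 2.93 to 3.84 in A > A, at 3.31 and 3.20 in mice 8 and 9 and at 2.38 and 2.50 in mice 22 and 23, with 143 of 217 higher, 74 lower, 0 called and a median of 0.37. limma called 11 of them higher against mice 22 and 23 alone, beside 1.44% of all genes. edgeR called 4 higher and 1 lower there, beside 1.02% and 0.0274%. For the early and 4 h only lists neither called any gene against mice 8 and 9.

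**Figure D5:**
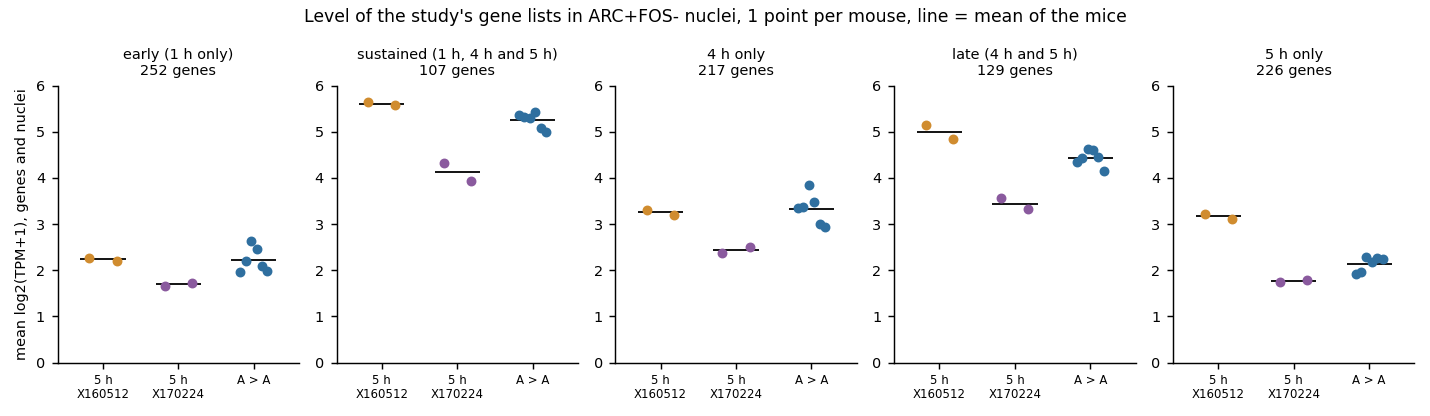
Mean log2(TPM+1) over the genes of each of the study's 5 lists, with 1 point per mouse, lines for means and the 5 h mice split by date code. Mice 22 and 23 are lowest for every list, and mice 8 and 9 are above the A > A mice for the sustained, late and 5 h only lists. Mice 22 and 23 are also lowest over all genes tested, at 1.28 and 1.37 (not drawn).

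Several genes that were high in mice 8 and 9 were low in the other single-exposure mice and in A > A. Against those mice limma called 16 genes lower in A > A, of which 13 belong to the 5 h only list, which holds 216 of the 11341 genes tested there. The study chose that list on these same 5 h nuclei, so the overlap is not independent evidence. The genes given below were named after their values were seen. AA465934 (chr11:83291699-83294632, plus strand, a processed transcript) was at 9.81 and 9.87 in mice 8 and 9, at 0.60 and 0.35 in mice 22 and 23 and at 0.83 to 2.21 in A > A. Mybl2, a transcription factor of the cell cycle, was at 5.05 and 4.87 in mice 8 and 9, at 0.05 and 0 in mice 22 and 23 and at 0.21 to 1.07 in A > A. Ppp1r8, a regulator of protein phosphatase 1, was at 5.44 and 6.59, then 1.22 and 0.20, and 0.40 to 1.30 in A > A. Mice 22 and 23 were below every A > A mouse for AA465934 and Mybl2 and overlapped A > A for Ppp1r8. Cit, citron kinase, was at 5.17 and 5.17 in mice 8 and 9, at 2.62 and 2.08 in mice 22 and 23 and at 0.06 to 1.12 in A > A, so that all 4 single-exposure mice were higher (difference −2.97 ± 0.57, SE, limma adjusted p = 0.179). Tcf7l2 was at 1.60 and 2.40 in mice 8 and 9 and below 0.5 in the other 8 mice, and Stam was at 3.81 and 4.25 there and at most 1.95 elsewhere.

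Several genes of high level in the other mice were lowest in mice 22 and 23. Slc17a7, the vesicular glutamate transporter VGLUT1, was at 6.36 to 7.60 in A > A, at 7.49 and 7.06 in mice 8 and 9 and at 2.05 and 2.77 in mice 22 and 23. Slc30a3, the vesicular zinc transporter of mossy fibre terminals, was at 8.50 to 10.4 in A > A, at 9.10 and 9.90 in mice 8 and 9 and at 5.61 and 3.27 in mice 22 and 23. Grina was at 8.30 to 9.58, then 8.98 and 9.06, and 2.73 and 4.62. The translation factor Eif1 was at 6.84 to 8.39, then 6.88 and 7.77, and 2.61 and 3.35. The mitochondrial leucyl-tRNA synthetase Lars2 was at 5.42 to 6.78 in A > A, at 8.47 and 8.17 in mice 8 and 9 and at 1.07 and 1.26 in mice 22 and 23. These 5 genes, also named after their values were seen, were called higher in A > A by limma against mice 22 and 23 (adjusted p = 0.000862 for Lars2, Grina and Eif1, 0.00148 for Slc30a3 and 0.00197 for Slc17a7) and were not called against mice 8 and 9. Both X170224 mice were below the other 8 mice for 1699 of 11102 genes (15.3%).

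Receptors and synaptic adhesion and scaffold genes were not called by edgeR against all 4 single-exposure mice. Grin2a, an NMDA receptor subunit, was at 5.76 to 7.60 in A > A, at 6.98 and 5.53 in mice 8 and 9 and at 1.00 and 3.94 in mice 22 and 23 (log2 fold change 1.29 ± 0.53, SE, edgeR adjusted p = 0.762). In CPM its mice did not overlap, at 381 to 603 in A > A and 26.0 to 339 at 5 h. Grm7, a presynaptic metabotropic receptor, was at 6.71 to 7.70, then 7.54 and 7.97, and 4.69 and 6.00. Of 20 glutamate receptor genes tested, 9 were higher and 11 lower, with a median log2 fold change of −0.04. On the mean log2(TPM+1), 12 of 17 were higher and 5 lower, with a median difference of 0.18 beside 0.11 over all genes. Of 10 GABA-A receptor genes 9 were higher and 1 lower, 2 were higher at an unadjusted p under 0.05 and the median was 0.44. Of 17 postsynaptic scaffolds 13 were higher and 4 lower with a median of 0.46, and of 24 synaptic adhesion genes 10 were higher and 14 lower with a median of −0.10. By sign 55.1% of all genes tested were higher, with a median log2 fold change of 0.12. The adhesion genes Cadm2 and Cadm3 had log2 fold changes of −0.94 ± 0.37 and 1.54 ± 0.83 (SE, edgeR adjusted p = 0.734 and 0.826). In CPM the mice did not overlap for Cadm2, at 40.9 to 108 in A > A and 121 to 216 at 5 h. Over all genes 1.19% were higher and 0.658% lower without overlap in CPM. edgeR called 0 genes in each of these 4 lists against all 4 mice and against mice 8 and 9. Against mice 22 and 23 alone limma called Grin2a (difference 4.08, limma adjusted p = 0.0177), Cadm3 (2.98, limma adjusted p = 0.0402), the GABA-A subunit Gabrb1 (3.09, limma adjusted p = 0.0326) and the scaffolds Dlg2 and Dlgap3 (2.14, limma adjusted p = 0.0372) higher, and edgeR called Dlgap3 (adjusted p = 0.0255). Of all genes tested, limma called 1.44% and edgeR 1.02% higher against mice 22 and 23. limma called none of the 4 lists' genes against mice 8 and 9. Gabrb1 and Dlgap3 were named after their values were seen.

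Metabolic, stress and clock genes were not called by edgeR against all 4 mice either. Of 76 nuclear genes of the respiratory chain 40 were higher and 36 lower, with a median log2 fold change of 0.02 beside 0.12 over all genes. On the mean log2(TPM+1), 58 were higher and 18 lower, with a median difference of 0.60 beside 0.11 over all genes. That median was 0.89 against mice 22 and 23 and 0.18 against mice 8 and 9, beside 0.30 and −0.07 over all genes. Cox6c, a subunit of cytochrome c oxidase, was at 7.50 to 9.23 in A > A and 6.83 to 7.58 at 5 h (log2 fold change 0.61 ± 0.28, SE, edgeR adjusted p = 0.795), with mouse 27 overlapping mouse 8. Uqcrc2 of complex III was at 1.81 to 3.94 and 1.32 to 2.92, and Ndufc2 of complex I at 0.76 to 5.17 and 3.20 to 4.80. Of 17 glucocorticoid-responsive genes 12 were higher and 5 lower with a median of 0.31, and Mt1, a metallothionein, was at 5.28 to 7.89 in A > A and at 4.44, 6.53, 3.55 and 3.79 at 5 h. Of 19 clock genes 14 were higher and 5 lower with a median of 0.61, among them Per2 at 1.32 to 3.26 and 1.42 to 2.53. Of 15 heat shock and chaperone genes 8 were higher and 7 lower with a median of 0.03. Of 16 CREB family and coactivator genes 11 were higher and 5 lower with a median of 0.38, and Crebbp was at 2.64 to 4.64 and 3.86 to 5.26 (log2 fold change −0.99 ± 0.44, SE, edgeR adjusted p = 0.786). Against mice 22 and 23 alone edgeR called Cyc1 of complex III (adjusted p = 0.0255), the stress gene Ddit4 (adjusted p = 0.0494, with a summed count of 0 in both mice) and the factor Atf4 (adjusted p = 0.0351) higher. limma there called Cyc1 (difference 3.19, limma adjusted p = 0.0317) and Uqcrh (3.69, limma adjusted p = 0.00994), also of complex III. These 4 genes were named after their values were seen, and against mice 8 and 9 neither test called any gene of these lists. Of the 76 respiratory chain genes edgeR called 1 and limma 2 higher against mice 22 and 23. Of all genes tested, edgeR called 1.02% and limma 1.44% higher there. By sign 55.1% of all genes were higher against all 4 mice.

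The resemblance between nuclei of 1 mouse overlapped between the groups. The mean Pearson correlation between nuclei of a mouse over 6913 genes, with each nucleus thinned to 100000 counts, was 0.315 ± 0.0117 (SD, n = 6) in A > A and 0.284 ± 0.0482 (SD, n = 4) at 5 h, with a two-sided exact permutation p = 0.229. Mice 8 and 9 had 0.331 and 0.319, within or beside the 0.304 to 0.332 of A > A, and mice 22 and 23 had 0.254 and 0.233. Without thinning the means were 0.289 and 0.256 (exact permutation p = 0.00952), and the groups then differed in depth as well.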

How the data were processed

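Nuclei from the hippocampus were sorted for ARC and FOS and made into SmartSeq2 libraries, read as single-end 50 bp reads. The authors trimmed reads with Solexa-QA++ and quantified them with RSEM and Bowtie on mm10 with the Ensembl annotation, whose release is not given in the sources used here. The expected counts deposited by the authors (42802 genes, all whole numbers) and the log2(TPM+1) values deposited by the authors (40221 genes) were used. The 13 mitochondrially encoded transcripts were not analysed here. Positions were taken by symbol from GENCODE vM21 (GRCm38, the same assembly).

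Nuclei with at least 4000 genes above 1 in log2(TPM+1) were kept, and all of them had at least 100000 aligned reads. A mouse was defined by its number in the labels. Mice 19 and 20 each span 2 date codes and several ages, so each number may stand for more than 1 animal. Counts were summed per mouse and tested with edgeR 4.0.16 in R 4.3.3 (TMM, filterByExpr, glmQLFit, glmQLFTest). Means of log2(TPM+1) per mouse were tested with limma 3.58.1 (trend) for genes with a mean above 0.5. Benjamini-Hochberg adjustment ran over all genes tested. Total counts of the nuclei that passed ranged from 142290 to 4337306. Counts include PCR copies. Library measures and spread were compared in Python 3.11.15 (numpy 2.4.6, pandas 2.3.3, scipy 1.17.1, figures with matplotlib 3.10.9) by exact permutation. edgeR and limma were tried on simulated sums of counts with 200 changed genes and the same dispersion for every gene. At a dispersion of 1.5, near the 1.54 of the data, edgeR recovered 0 and limma 1 of them at a log2 change of 3. At a log2 change of 6 they recovered 129 and 157. At a dispersion of 0.1 both recovered all 200 at either size. In the simulation limma ran on log2(CPM+1) of the sums, not on means of log2(TPM+1) over nuclei. Its recovery there therefore does not describe the limma test used here.

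The members and lists were chosen with earlier results of these data known. Genes named are those the paper names for these nuclei, the 10 with the smallest edgeR p in each direction among genes whose mice do not overlap in CPM (no gene was called), of which unnamed gene models are given by number (3 higher and 3 lower), and the 3 members of each list with the smallest p, of which the better expressed are given. Some of these genes are not reported here. Others are said to be named after their values were seen. Alternatives were DESeq2 1.42.0, its size factors, no filter, thinning, an aligned-read minimum, at least 5 nuclei, other groupings, a pseudocount of 0.1, and leaving out mice or dates. ROTS, the authors' test on nuclei, was not run. Promoter motifs were planned for called genes and not searched, since edgeR called 0.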

Additional observations from a re-analysis of the deposited data

Results flagged for a closer look

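In 19 of 286 groups of mice examined (6.64%), the highest or lowest mouse stood apart from the others by Dixon's 95% criterion, which chance meets in about 1 in 20 groups. All values are mean log2(TPM+1). Among the 5 h mice, mouse 22 was the highest for Fos at 2.75, Fosb at 0.863, Hspa5, an endoplasmic reticulum chaperone, at 7.06 and the gene model Gm10479 at 0.258. Mouse 23 was the lowest for the kinase Tnik at 4.28, the granule cell gene C1ql3 at 2.53 and the interneuron gene Lhx6 at 0.0378. Mouse 9 was the lowest for AW209491 at 0 and the highest for Tsc22d3 at 0.335, Mpped1 at 0.288, Wfs1 at 0.525, Bok at 0.627 and Pvalb at 0.210. For Fosb and Gm10479 in mouse 22, and for Tsc22d3, Mpped1, Bok and Pvalb in mouse 9, all other 5 h mice were at 0. Any value above 0 then meets the criterion, so the rate of 1 in 20 does not hold for these flags. Mice 22 and 23 rest on 10 and 6 nuclei. Among the A > A mice, mouse 25 was the highest for Spry2 at 7.49, mouse 24 for the glucocorticoid-responsive Tsc22d3 at 1.28 and the oligodendrocyte gene Cnp at 2.41, and mouse 20 for the clock gene Arntl at 2.83. Mouse 27 was the lowest for Grm7 at 6.71 and mouse 20 for Cit at 0.0639.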

How the results depend on the processing

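The median depth was 381222 and 350949 counts per nucleus in 5 h mice 8 and 9, and mice 22 and 23 rested on 10 and 6 nuclei. The common dispersion between mice was 1.54 in the edgeR fit, and a p that missed the threshold does not show that the groups are alike. No paired analysis was possible because the 2 groups share no mouse number. Leaving out the date codes X170224, and X160512 for limma and the library measures, was added after the data were seen. The numbers of genes edgeR called stayed at 0 with DESeq2's size factors, without the filter, with thinning, with at least 5 nuclei or 100000 aligned reads, with mice 19 and 20 split by date code, without X021618 and without each mouse. They were 580 with DESeq2, 1 with limma, 1 with all ARC-sorted groups in one fit, 191 without X160512 and 1 without X170224. Genes called by limma numbered 0 with log2(TPM+0.1), 174 without X160512, 17 without X170224 and 0 to 1 when 1 mouse was left out. Of the values of single genes under other settings, 2229 kept their direction and call, 61 changed sign and 28 passed the threshold, and the cause was not tested.

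The difference in log10 total count was 0.32 to 0.55 when 1 mouse was left out, 0.11 without X160512 and 0.76 without X170224, and that in multimapped reads was −4.67 to −3.42, −2.54 and −5.30 percentage points. With fewer mice the exact permutation test could not fall below 0.0238 for 3 against 6 or 0.0714 for 2 against 6, so these lost calls say nothing about stability. The difference in genes above 1 was −268 without X170224, and that in percent aligned −1.73 without X160512. The difference in correlation between nuclei was 0.0336 without thinning, which passed 0.05, and −0.0104 without X170224.

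Log2 fold changes turned sign for genes near 0 or split by date. For Blnk it was −0.0146 with DESeq2, −0.0188 with its size factors, −0.61 with limma, −0.0228 with thinning and −0.00902 without X170224. With limma it was 0.14 for Homer1, −0.26 for Acan, −0.00366 for Entpd4 and 1.51 for Lars2. With mice 19 and 20 split it was 0.0902 for Homer1, 0.12 for Inhba and 0.0804 for Bdnf. Without X021618 it was 0.21 for Inhba, 0.0856 for Bdnf, −0.17 for Entpd4, −0.35 for Nmb, −0.49 for Mag, −0.35 for Cx3cr1 and 0.0727 for Ppp1r8. Without X160512 it was 0.63 for Homer1, −0.0404 for Sorcs3, 2.71 for AA465934, 10.5 for Mybl2 (which depends on the prior count, since mice 22 and 23 had a summed count of 0 for Mybl2), 1.47 for Ppp1r8, 1.05 for Stam and 4.79 for Lars2. Without X170224 it was 2.94 for Fos, 10.6 for Fosb (at 0 in mice 8 and 9, so no bound), 0.19 for Nr4a2, 0.45 for Inhba, 0.22 for Bdnf, −0.26 for Nptx2, 0.0446 for Tnik, −0.22 for Acan, 0.0383 for Spry2, 0.15 for Nlgn1, 1.13 for Hspa4, 0.0638 for Crebbp, 1.10 for Dlx6os1, 0.0869 for Sox11 and −0.0544 for Slc17a7. When 1 mouse was left out it ran from −0.33 to 0.0117 for Bdnf, −0.22 to 0.24 for Blnk, −0.29 to 0.90 for Cx3cr1, −0.0176 to 0.59 for Entpd4, −3.94 to 3.37 for Fos, −2.36 to 10.5 for Fosb, −0.74 to 0.16 for Homer1, −0.41 to 0.0676 for Inhba, −0.40 to 1.84 for Mag, −1.53 to 0.76 for Nr4a2 and −0.60 to 0.50 for Ppp1r8.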

Other observations

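Cit and AA465934 also varied among groups that were not part of the comparison. Cit, citron kinase, had a mean log2(TPM+1) of 4.32 and 4.33 in A > A ARC+FOS+ mice 15 and 16 and of 0.19 to 0.92 in mice 24, 25, 26 and 27 of the same gate. It was at 2.86 and 2.94 in the ARC+FOS- nuclei of mice 11 and 12, which met A and then C, and at 0.45 and 0.16 in the mice killed 4 h after 1 exposure. AA465934 was at 3.93 and 3.48 in mice 15 and 16, at 0.73 to 2.36 in mice 24 to 27 and at 1.78 to 2.32 in the ARC+FOS- nuclei of mice 11 and 12 and of the 4 h mice. In the ARC+FOS+ nuclei of mice 13 and 14, which met A and then C, AA465934 was at 4.24 and 5.06 and Cit at 3.37 and 3.91. All these AA465934 values were below the 9.81 and 9.87 of 5 h mice 8 and 9.

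Within A > A ARC+FOS- nuclei, mice 26 and 27 differed from the other 4 in the respiratory chain list. Its mean log2(TPM+1) over 76 genes was 3.61 and 3.38 in mice 26 and 27 and 4.35 to 5.45 in mice 19, 20, 24 and 25, with 3.26 to 4.24 at 5 h. The heat shock and chaperone list was at 3.14 and 3.18 in mice 26 and 27 and at 4.03 to 4.22 in the other 4. In the ARC+FOS+ nuclei of mice 26 and 27 the 2 lists were at 3.29 and 3.18 and at 3.25 and 3.83. Mice 26 and 27 share a date code that no other mouse of the comparison carries. No test was run on these values.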
